A study of Homo sapiens with 6 samples.

Results

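Readthrough loci are genes annotated as the joining of a pair of neighbouring genes on one strand, named with a hyphen between the upstream and the downstream symbol. In the count table of the NGP series, 101 of 19863 rows carried such a symbol, that is, a hyphenated symbol whose parts before and after the hyphen were each the symbol of another row. The rule that picks the members uses symbols only, but it was chosen with earlier results of these data known. The members have 200 parent genes between them, since RAB4B and BLOC1S5 each stand in a pair of loci. NGP is an established MYCN-amplified human neuroblastoma line. One group received DMSO, the solvent, and the other OTSSP167, a kinase inhibitor which the series title calls a CAMKV inhibitor, at 60 nM for 12 h; both were otherwise grown alike. Each group held 3 mRNA libraries, and whether these were separate cultures is not in the labels; the p-values then rest on a spread between libraries that may be technical. All libraries come from 1 line, and a single dose and time were used.

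At the end of most protein-coding genes the nascent RNA is cleaved behind a poly(A) signal, and RNA polymerase II then stops and leaves the DNA. Where cleavage or termination does not take place, the polymerase can run on into the next gene, and splicing can join an exon of the upstream gene to an exon of the downstream gene. Such joined transcripts often skip the last exon of the first gene and the first exon of the second, and many are predicted to be degraded by nonsense-mediated decay.

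What sets a joined transcript apart from its parents is the exon junction between them. GENCODE 29 (GRCh38) gives such a junction for 91 of the 101 members. At 62 of the 91 (68.1%) the donor is also a splice donor of the upstream parent itself, so that its last exon can be skipped, and at 79 (86.8%) the acceptor is also a splice acceptor of the downstream parent. Both held at 53 loci (58.2%), and at 9 loci the donor exon lies in no exon of the upstream parent. The annotated junction transcript was of the protein-coding type at 44 loci and of the nonsense-mediated decay type at 40. The 12 junctions below belong to rows that rose with OTSSP167 and are shown because a read across one can be told from a read of either parent. Each is written 5′ to 3′ as 15 bases of the upstream exon in lower case and 15 bases of the downstream exon in capitals.
HSPE1-MOB4: ggttctaaaggaaagGATTTCTATAATTGG
ISY1-RAB43: cagaaggctcctgggCTGCAGATCTGGGAC
ST20-MTHFS: gtctcccaggttcagGTGATTGCCCACAGT
RPL36A-HNRNPH2: attttccggaaaaagCTACACCAAAATTGC
FPGT-TNNI3K: tattaattcactctgATGAATGGAAGAAAA
TMX2-CTNND1: agaaccgcagatccaCTCTCTCCTTCCTGC
BORCS8-MEF2B: cctccgccaacccagACAAAGATCATTCCA
NDUFC2-KCTD14: attttcctgaagaagATGTCTACTGTTGTG
FXYD6-FXYD2: gccatcaggtggaagGCGGCAGCCCCAAGG
TMED7-TICAM2: aagagtggcctattgATTGAAAAGAAATGC
MROH7-TTC4: cgcagaaagagctaaGAATTTGAAAAGGTC
ZFP91-CNTF: agtgggacggaacggTTGAGTTAAGGGATG

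The HSPE1-MOB4 junction joins the donor base 197501238 to the acceptor base 197523624 on the plus strand of chromosome 2, exons 2 and 3 of 9 in the joined transcript. At ISY1-RAB43 it runs from 129130088 to 129095169 on the minus strand of chromosome 3, exons 11 and 12 of 13. At MROH7-TTC4 it runs from 54715610 to 54716600 on the plus strand of chromosome 1. That donor exon lies beyond the annotated end of MROH7 itself, at 54710266, in the interval before TTC4. The ZFP91-CNTF junction runs from 58617568 to 58622741 on the plus strand of chromosome 11. The deposited values are counts per gene symbol, not per junction. How reads that fall in exons shared by a joined gene and a parent were divided is not given in the sources used here, so the counts of a readthrough row and its parents are not independent. Every value below is therefore the count that the authors' counting gave to a row, and none is a count of junction reads.

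Across the members, OTSSP167 was accompanied by more counts in readthrough rows. Of the 76 members that passed the low-count filter, 24 were higher (31.6%) and 2 were lower (2.63%) by edgeR's quasi-likelihood test at a Benjamini-Hochberg adjusted p under 0.05, and 50 did not pass. Among all 14402 rows tested, 46.1% passed, 23.8% higher and 22.3% lower. The excess over the background was in the size of the rises and in the scarcity of falls. Of the tested members, 18 (23.7%) passed with a log2 fold change of 2 or more, against 6.08% of all rows tested. That comparison was not matched for level. The median log2 fold change of the tested members was 1.08, beside 0.01 over all tested rows. It was 0.56 for the 25 members with at least 1 CPM (read counts relative to the library's total, TMM-scaled between libraries) in all 6 libraries, beside -0.01, and 0.93 to 1.45 with a library left out. The filter kept 76 of the 101 members. With no filter, 95 members had a count and the same numbers passed, 24 higher and 2 lower, beside 19.7% and 18.7% of the 16982 rows with a count. Their median was then 1.23, beside 0.06. With rows at 0 in 1 group set to the bound that 3 counts over that group allow, the medians were 1.17 and 0.05.

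The members were low rows, with a median of mean CPM of 1.67 over the 101, beside 7.17 over all rows. Low rows had a higher median log2 fold change than abundant ones in the whole table. The members were therefore also compared by level in CPM, a split chosen after the data were seen. Shares at a log2 fold change of 2 or more were not counted by level. With no filter, the 39 members under 1 CPM on average had a median log2 fold change of 1.23, close to the 1.06 of all rows at that level, and 6 were higher and 0 lower with edgeR against 12.0% and 1.93% of rows at that level. Of the 36 members between 1 and 10 CPM, 11 were higher and 0 lower with edgeR, with a median of 1.39 beside 0.10, against 23.4% and 16.2% of rows at that level. Of the 20 members above 10 CPM, 7 were higher and 2 lower, with a median of 1.06 beside -0.08, against 21.9% and 27.6%. The members' medians lay above those of rows of like level from 1 CPM upwards, and near them below it. Their parents were partly alike. The 34 parents under 1 CPM had a median of 1.22 (6 higher, 2 lower). Between 1 and 10 CPM the 45 parents also lay above rows of like level, at 0.91 (16 higher, 3 lower). Only above 10 CPM did the parents (108 rows, median -0.21, 17 higher, 30 lower) not share the members' rise. These differences were not tested.

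Summed over the members, the readthrough rows held 1338, 962 and 958 CPM in the DMSO libraries and 2054, 1848 and 2259 CPM in the OTSSP167 libraries. Every OTSSP167 library lay above every DMSO library (1086 ± 219 and 2054 ± 206 CPM, SD, n = 3, log2 difference 0.92, 2-sided exact permutation p = 0.1, the smallest that 6 libraries allow). Without SENP3-EIF4A1, left out after its scatter between libraries was seen, the sums were 979 ± 33.2 and 1787 ± 210 CPM. Without NME1-NME2 as well, they were 588 ± 52.4 and 1200 ± 216 CPM. The summed upstream parents overlapped between the groups (5297 ± 296 and 5359 ± 248 CPM), and the summed downstream parents were lower in every OTSSP167 library (5724 ± 529 and 4711 ± 221 CPM). That difference rested on IGF2 and EIF4A1: without them, a choice made after seeing the data, the downstream sums were 4232 ± 280 and 4235 ± 218 CPM and overlapped. Members with at least 1 count numbered 74, 71 and 79 in the DMSO libraries and 87, 89 and 85 in the OTSSP167 libraries. Rows of the whole table with a count numbered 14919 to 15030 and 15481 to 15900.

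HSPE1-MOB4 rose while both of its parents fell. HSPE1 encodes the mitochondrial co-chaperonin of HSPD1, and MOB4 a subunit of the STRIPAK phosphatase complex. HSPE1-MOB4 (chromosome 2, 197500413 to 197550726) measured 3.18, 3.28 and 3.52 CPM in DMSO and 41.0, 36 and 32.0 CPM in OTSSP167. The groups lay far apart (a log2 fold change of 3.45 with SE 0.14, at an adjusted p of 5.97e-05 by edgeR). HSPE1 fell from 153 ± 3.79 to 83.2 ± 5.81 CPM (adjusted p = 0.000333 by edgeR), and MOB4 from 82.6 ± 3.29 to 70.2 ± 3.72 CPM (edgeR adjusted p = 0.0348). The readthrough row thereby went from 1.33 to 1.5% of the counts of the 3 rows in DMSO to 16.8 to 22.3% in OTSSP167. It was the only one of the 24 risen rows with both parents lower. The parents lie 12113 bases apart.

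ISY1-RAB43 joins ISY1, a spliceosome-associated protein, to RAB43, a small GTPase of membrane traffic. This row (chromosome 3, 129087575 to 129161036) measured 1.07, 1.06 and 0.993 CPM in DMSO and 22.2, 12.8 and 25 CPM in OTSSP167 (a log2 fold change of 4.26 with SE 0.31, at an adjusted p of 0.000321 by edgeR). ISY1 fell from 49.8 ± 1.99 to 37.3 ± 4.55 CPM (adjusted p = 0.0289 by edgeR). RAB43 stood at 0.0195, 0.508 and 0.0432 CPM in DMSO and 0.204, 3.58 and 10.5 CPM in OTSSP167, with overlapping groups, and did not pass (edgeR adjusted p = 0.0783). In OTSSP167 replicate 1 the readthrough row held 22.2 CPM while RAB43 held 0.204.

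MROH7-TTC4 showed the same kind of shift towards the joined row. MROH7 is a HEAT-repeat protein and TTC4 a co-chaperone with tetratricopeptide repeats. The row (chromosome 1, 54641786 to 54742308) measured 1.86, 0.317 and 2.89 CPM in DMSO and 38.7, 39.8 and 27.0 CPM in OTSSP167 (a log2 fold change of 4.38 with SE 0.80, at an adjusted p of 0.00795 by edgeR). TTC4 measured 39.2 ± 1.94 and 26.0 ± 8.84 CPM (edgeR adjusted p = 0.121), and MROH7 was too low to test, with 8 counts in all DMSO libraries and 73 in all OTSSP167 libraries. The joined row took 0.807 to 6.56% of the locus counts in DMSO and 43.6 to 69.5% in OTSSP167.

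Rises at TMX2-CTNND1, FPGT-TNNI3K, NDUFC2-KCTD14 and FXYD6-FXYD2 also went with a lower upstream parent. Among them, TMX2-CTNND1, FPGT-TNNI3K and FXYD6-FXYD2 were named under a rule that picks rows opposite to a parent. A lower upstream parent was about as common over all tested loci, at 21 of 76, as at the risen loci, at 7 of 24. TMX2-CTNND1, which joins an endoplasmic reticulum thioredoxin-related protein to a catenin of adherens junctions, measured 0.0391, 0.127 and 0.0432 CPM in DMSO and 1.28, 1.53 and 1.75 CPM in OTSSP167 (a log2 fold change of 4.40 with SE 0.53, at an adjusted p of 0.00178 by edgeR). TMX2 fell from 106 ± 3.03 to 71.2 ± 4.72 CPM (adjusted p = 0.00158 by edgeR), and CTNND1 stood at 171 ± 41.1 and 123 ± 28.4 CPM (edgeR adjusted p = 0.161). FPGT-TNNI3K joins a fucose phosphate guanylyltransferase to a cardiac kinase, and measured 0.918, 0.677 and 1.14 CPM in DMSO and 6.05, 3.05 and 5.10 CPM in OTSSP167 (a log2 fold change of 2.37 with SE 0.36, at an adjusted p of 0.00412 by edgeR). FPGT fell by 1.00 in log2 units (adjusted p = 0.00198 by edgeR), while TNNI3K rose from 6 to 199 counts over the 3 libraries of a group (edgeR adjusted p = 0.0415).

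At the latter pair, as at FPGT-TNNI3K, the downstream parent rose along with the joined row. NDUFC2-KCTD14, starting at a subunit of respiratory complex I, measured 0.332, 0.190 and 0.0864 CPM in DMSO and 1.53, 0.877 and 7.78 CPM in OTSSP167 (a log2 fold change of 4.03 with SE 1.08, at an adjusted p of 0.0287 by edgeR). NDUFC2 fell from 115 ± 0.498 to 73.7 ± 7.59 CPM (adjusted p = 0.00249 by edgeR) and KCTD14 rose from 0.304 ± 0.0676 to 3.39 ± 1.65 CPM (edgeR adjusted p = 0.00288). FXYD6-FXYD2, whose parents both encode regulators of the sodium pump, measured 0.0977, 0 and 0.238 CPM in DMSO and 2.32, 1.74 and 1.53 CPM in OTSSP167 (a log2 fold change of 4.03 with SE 0.97, at an adjusted p of 0.0204 by edgeR). FXYD6 fell by 0.21 in log2 units (adjusted p = 0.0227 by edgeR) and FXYD2 rose by 3.52 (edgeR adjusted p = 0.00705). In these rows and parents the OTSSP167 libraries all lay above, or for the upstream parents all below, the DMSO libraries.

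ZFP91-CNTF was at 0 in every DMSO library and at 7.86, 13.5 and 12.4 CPM with OTSSP167, 1531 counts in all. Against a floor of 3 counts over the DMSO group it was at least 556-fold higher (edgeR adjusted p = 0.000977). That bound covers counting error only, not how reads were divided among the rows. ZFP91 is a zinc-finger ubiquitin ligase and CNTF, ciliary neurotrophic factor, a cytokine that keeps neurons alive. CNTF rose as well, from 0.0586, 0 and 0.0432 CPM to 3.73, 5.00 and 7.12 CPM (edgeR adjusted p = 0.00114). ZFP91 scattered, at 54.9, 168 and 94.9 CPM in DMSO and 53.8, 14.9 and 25.4 CPM in OTSSP167 (edgeR adjusted p = 0.0677). The OTSSP167 library with the lowest ZFP91 value, replicate 2, had the highest ZFP91-CNTF value.

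A further 4 of the largest rises were of low rows. CCDC169-SOHLH2 and MIA-RAB4B were at 0 in DMSO and had 65 and 58 counts in the OTSSP167 group. By the same counting bound they were at least 23.6-fold and 21.1-fold higher (edgeR adjusted p = 0.0136 and 0.00702). TSNAX-DISC1 went from 3 to 122 counts, a ratio of 44.3 with an exact counting interval of 14.8 to 217.8 at 95% confidence, which covers counting error only (edgeR adjusted p = 0.0226). TMEM110-MUSTN1 measured 0, 0.423 and 0 CPM in DMSO and 3.88, 3.59 and 3.63 CPM in OTSSP167 (edgeR adjusted p = 0.0411). Of their parents only MIA passed, higher, from 4 to 110 counts (edgeR adjusted p = 0.0163).

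**Figure D1:**
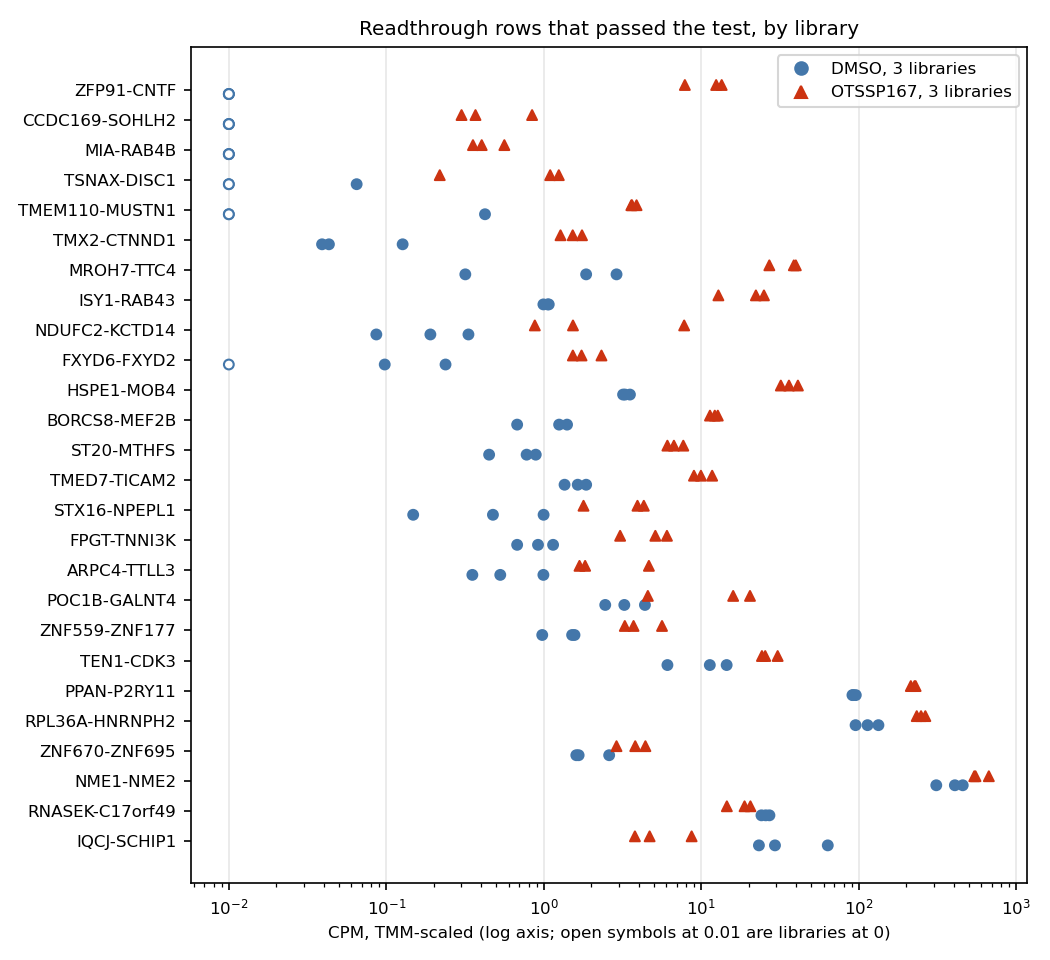
CPM in each library (log axis, open symbols at 0.01 for libraries at 0) of the 26 readthrough rows that passed the test, DMSO as circles and OTSSP167 as triangles, ordered by log2 fold change. In every one of them the groups do not overlap, and the low rows at the top include ZFP91-CNTF, at 0 in DMSO and at 7.86 to 13.5 CPM in OTSSP167.

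The remaining risen rows were named here after their values were seen. BORCS8-MEF2B, from a gene of lysosome positioning into a transcription factor gene, measured 1.25, 0.677 and 1.40 CPM in DMSO and 12.2, 11.3 and 12.7 CPM in OTSSP167 (a log2 fold change of 3.44 with SE 0.32, at an adjusted p of 0.000705 by edgeR), and neither parent passed. ST20-MTHFS, whose downstream parent is an enzyme of folate metabolism, measured 0.449, 0.888 and 0.778 CPM in DMSO and 7.68, 6.70 and 6.09 CPM in OTSSP167 (edgeR adjusted p = 0.000812). Its share of the locus counts went from 15.1 to 17.6% in DMSO to 56.6 to 61.8%, and neither parent passed. In TMED7-TICAM2, from a protein of secretory transport into an adaptor of Toll-like receptors, the row rose from 1.62 ± 0.252 to 10.2 ± 1.39 CPM (edgeR adjusted p = 0.000389). TICAM2 itself had 1 count in the DMSO group and 318 in the OTSSP167 group (ratio 346, exact counting interval 61.7 to 13728, edgeR adjusted p = 0.00188). TMED7 did not pass, and the summed CPM of the 3 rows scattered in DMSO, at 4.79, 60.2 and 13.9 CPM. The share of the joined row there is accordingly unsteady.

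STX16-NPEPL1, ARPC4-TTLL3 and POC1B-GALNT4 rose by 2.02 to 2.62 on the log2 scale beside a risen downstream parent and an upstream parent that did not pass. ZNF559-ZNF177 (log2 fold change 1.64) and TEN1-CDK3 (1.33) rose with neither parent passing. ZNF670-ZNF695 rose by 0.92 with both parents, which rose by 0.74 and 0.53. Of the 13 calls lost under some alternative, 9 rises were lost when at least 1 library was left out, beside NME1-NME2 and RNASEK-C17orf49: TSNAX-DISC1, TMEM110-MUSTN1, NDUFC2-KCTD14, FXYD6-FXYD2, STX16-NPEPL1, ARPC4-TTLL3, POC1B-GALNT4, TEN1-CDK3 and ZNF670-ZNF695. Their largest adjusted p over all alternatives lay between 0.0676 and 0.214.

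The most abundant risen rows rose less. PPAN-P2RY11 joins a ribosome biogenesis factor to a purinergic receptor, and measured 95.6, 92.1 and 91.1 CPM in DMSO and 225, 214 and 229 CPM in OTSSP167 (a log2 fold change of 1.26 with SE 0.05, at an adjusted p of 4.08e-05 by edgeR). Both parents rose too, PPAN by 1.12 and P2RY11 by 1.71, and the joined row kept 57.9 to 61.5% of the locus counts in all 6 libraries. The annotated parents overlap by 97 bases. RPL36A-HNRNPH2, from a ribosomal protein gene into an RNA-binding protein gene on chromosome X, measured 95.3, 114 and 133 CPM in DMSO and 264, 248 and 233 CPM in OTSSP167 (a log2 fold change of 1.12 with SE 0.13, at an adjusted p of 0.00173 by edgeR). RPL36A stood at 303 ± 18.1 and 340 ± 17.1 CPM (adjusted p = 0.0684 by edgeR) and HNRNPH2 at 20.1 ± 9.20 and 11.5 ± 2.99 CPM (edgeR adjusted p = 0.177).

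NME1-NME2, whose parents encode nucleoside diphosphate kinases, measured 457, 407 and 310 CPM in DMSO and 669, 541 and 550 CPM in OTSSP167 (a log2 fold change of 0.58 with SE 0.16, at an adjusted p of 0.0343 by edgeR). NME1 fell from 387 ± 26.3 to 166 ± 13.6 CPM (adjusted p = 0.00025 by edgeR), and NME2 did not pass (edgeR adjusted p = 0.782). NME1 and NME2 are close paralogs, and RPL36A and RPS10 have near-identical copies in the genome, so the division of reads at these loci is uncertain. The NME1-NME2 call was lost in 6 of 15 alternatives, among them leaving out DMSO replicate 2 or 3 or any OTSSP167 library (adjusted p up to 0.0909 with a library left out).

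Both rows that fell, IQCJ-SCHIP1 and RNASEK-C17orf49, did so without a parent that passed. IQCJ-SCHIP1 (chromosome 3, 158962235 to 159897366) measured 29.3, 23.2 and 63.5 CPM in DMSO and 8.68, 3.79 and 4.69 CPM in OTSSP167 (a log2 fold change of -2.76 with SE 0.54, at an adjusted p of 0.00998 by edgeR). Its upstream parent IQCJ was at 0 in all 6 libraries. SCHIP1, which encodes a schwannomin-interacting protein of the axon initial segment, stood at 31.1 ± 16.1 and 19.6 ± 1.91 CPM (edgeR adjusted p = 0.201). The annotated parents lie 573553 bases apart, where the median over loci was 3763.5 bases. RNASEK-C17orf49 measured 27.1, 25.6 and 24.1 CPM in DMSO and 18.8, 20.5 and 14.5 CPM in OTSSP167 (a log2 fold change of -0.51 with SE 0.16, at an adjusted p of 0.0418 by edgeR), and 9 of 15 alternatives lost that call, among them leaving out any single library other than OTSSP167 replicate 2 (adjusted p up to 0.758 over all alternatives). RNASEK and C17orf49, which overlap by 38 bases, did not pass (edgeR adjusted p = 0.421 and 0.066).

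**Figure D2:**
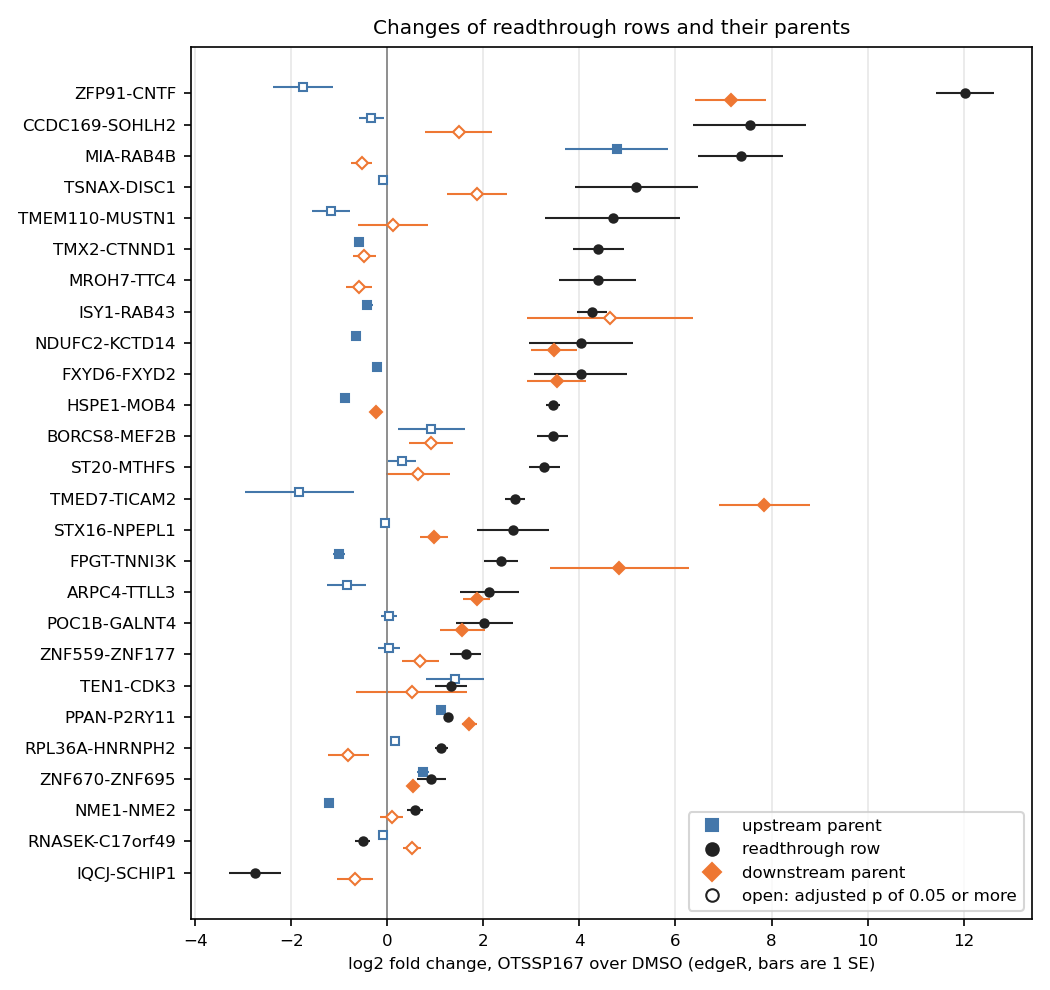
Log2 fold change, OTSSP167 over DMSO, with bars of 1 SE (horizontal axis), of the upstream parent, the readthrough row and the downstream parent at the 26 loci whose readthrough row passed; filled symbols passed the test, open ones did not, and untested parents are left out. The readthrough row lies right of its upstream parent at all but 2 of the drawn pairs; positions of rows at 0 in DMSO, such as ZFP91-CNTF, depend on edgeR's prior count and are no measured fold.

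Some loci changed how their counts were divided between libraries of one group, and this limits what their rows can show. A 10-fold or wider range within a group, in rows with at least 100 counts in 1 library, occurred in 15 of the 76 tested members (19.7%), against 2.31% of all tested rows, and 0 of the 15 passed the edgeR test. This rule was set after the values were seen, and the shares were not matched for level. A range that wide itself works against passing, so the 0 of 15 says little. The largest case was SENP3-EIF4A1, which joins a SUMO protease to the RNA helicase of translation initiation. The joined row held 321 CPM in DMSO replicate 1 and 0 in DMSO replicates 2 and 3, and 265, 272 and 264 CPM in OTSSP167. SENP3 mirrored it, at 3.07 CPM in DMSO replicate 1, 67.6 and 68.4 CPM in the other two, and 8.80, 7.89 and 7.51 CPM in OTSSP167. EIF4A1 stood at 300, 834 and 873 CPM in DMSO and 335, 292 and 293 CPM in OTSSP167. DMSO replicate 1 was thus divided like the OTSSP167 libraries, and none of the 3 rows passed (edgeR adjusted p = 0.693, 0.105 and 0.0725). Without DMSO replicate 1 the joined row was at 0 in the remaining DMSO libraries and passed (edgeR adjusted p = 0.000138), as it did with limma-voom on all libraries (adjusted p = 0.0486).

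At RPS10-NUDT3 a single treated library stood apart. The joined row measured 3.95, 26.4 and 43.6 CPM in DMSO and 20.9, 25.4 and 420 CPM in OTSSP167 (edgeR adjusted p = 0.207). RPS10, a ribosomal protein gene, was at 1239 and 1229 CPM in OTSSP167 replicates 1 and 2 and at 812 CPM in replicate 3. The 3 rows together measured 2002, 2013 and 1953 CPM in these libraries, so the sum moved little while its division moved much. ARL2-SNX15 measured 23.5 CPM in OTSSP167 replicate 1 and at most 0.666 CPM in the other 5 libraries, and SNX15 was at 6.35 CPM in that library and at 19.5 to 22.6 CPM elsewhere. COMMD3-BMI1 measured 29, 25.5 and 0.382 CPM in OTSSP167 and at most 1.82 CPM in DMSO, and BMI1 stood at 12.5, 51.3 and 53.9 CPM in OTSSP167. Reads moving between rows of a locus from library to library, and a change in the transcripts themselves, cannot be told apart in these counts.

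**Figure D3:**
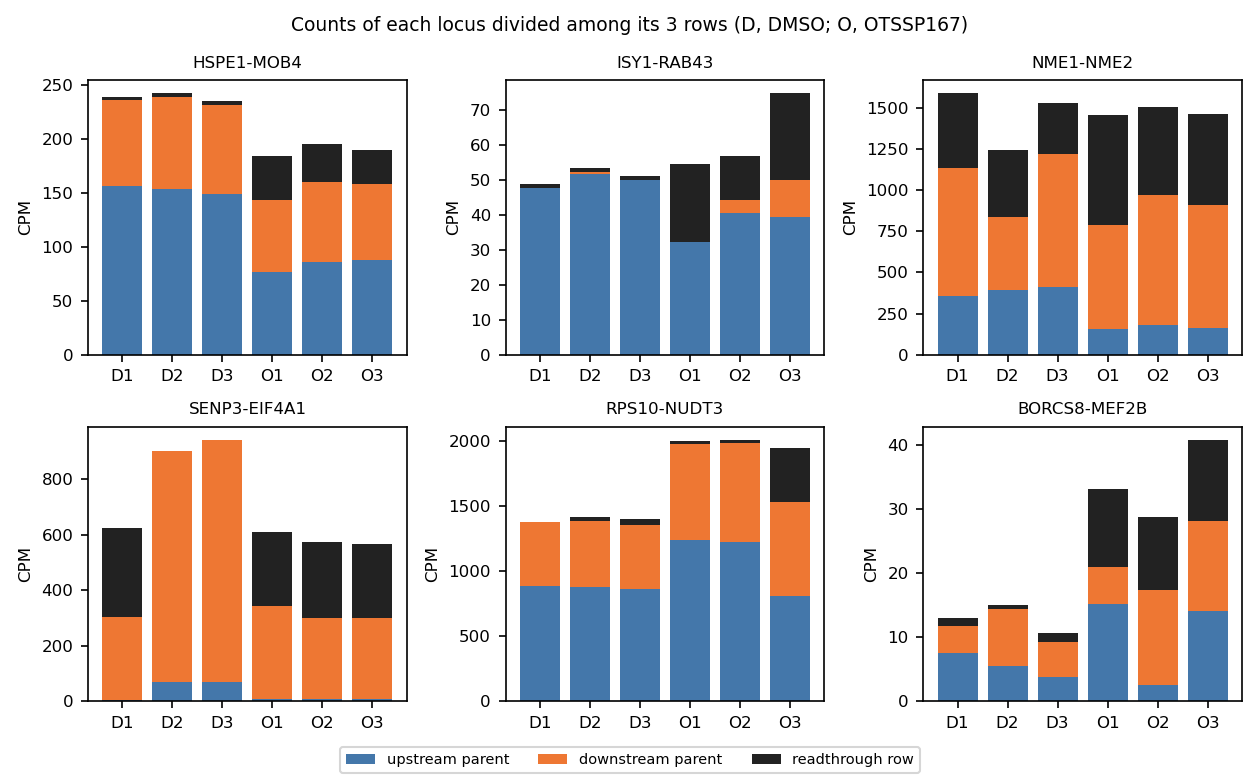
CPM of the upstream parent, the downstream parent and the readthrough row, stacked for each library (D1 to D3, DMSO; O1 to O3, OTSSP167), at 6 loci. The readthrough share grows in every OTSSP167 library at HSPE1-MOB4, ISY1-RAB43 and BORCS8-MEF2B, is large in DMSO replicate 1 and in the OTSSP167 libraries at SENP3-EIF4A1, and is large in 1 OTSSP167 library at RPS10-NUDT3.

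The parents split between both directions. Of 171 tested parents, 39 were higher and 35 lower (22.8% and 20.5%). Without a match for level, this was close to the shares of all tested rows, 23.8% and 22.3%. The counts leaned opposite ways by position, without a test of that difference: 17 of 87 tested upstream parents were higher and 24 lower (median log2 fold change -0.16), while 22 of 86 downstream parents were higher and 11 lower (median 0.14). At the 24 loci with a risen joined row, the upstream parent was higher at 3, lower at 7, not past the test at 13 and untested at 1. Over all 76 tested loci it was higher at 13 and lower at 21. The downstream parent was higher at 10 of the 24 risen loci, lower at 1 and not past the test at 13. Over all 76 tested loci it was higher at 21 and lower at 9. Neither parent passed at 9 of the 24 loci, and at 3 the upstream parent fell while the downstream parent rose. Across all 76 tested loci that last pattern held at 9, a similar share.

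The ratio of joined row to upstream parent was taken within a library (log2, with 0.5 CPM added to each). Scaling cancels there except for the added 0.5 CPM. Where the joined row lies under that value, the ratio largely follows the parent. This ratio was higher in every OTSSP167 library than in every DMSO library at 30 of 74 loci and lower at 6, with a median shift of 1.10. The ratio to the downstream parent was higher at 16 of 73 loci and lower at 7, with a median shift of 0.42. No like share over other rows was counted for these ratios. The nearest is that of other neighbouring pairs given below, 27.8% higher and 27.2% lower, which the 16 of 73 do not exceed. The ratio of downstream to upstream parent, which leaves out the joined row, was higher at 32 of 76 loci (42.1%) and lower at 18 (23.7%). Among 11147 other neighbouring same-strand pairs of tested genes these shares were 27.8% and 27.2%. For parents at most 20 kb apart they were 28 of 63 loci (44.4%) and 14 of 63, against 30.0% and 25.5% of 3819 pairs. The median share of a locus's counts held by the joined row was 3.91% in DMSO and 11.7% in OTSSP167. The summed CPM of the 3 rows did not go one way: at the 24 risen loci they were higher in every OTSSP167 library at 9, lower at 5 and overlapping at 10, beside 30.8% and 29.6% for single rows of the whole table. Across loci the log2 fold changes of joined row and upstream parent had a Pearson r of 0.01 (n = 74), and of joined row and downstream parent 0.38 (n = 73); the points share libraries, and possibly reads.

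The loci were compact. At 92 of the 101 both parents lie on 1 chromosome and strand in GENCODE 29, with a median gap of 3763.5 bases between them, 65 gaps of 0 to 20 kb, 12 overlaps and 3 gaps above 100 kb. The gap had a median of 6613 bases at 23 risen loci and 2784 bases at 45 tested loci that did not pass. At BORCS7-ASMT the symbol after the hyphen names a gene on chromosome X while BORCS7 lies on chromosome 10, so ASMT is its parent by the naming rule only. The poly(A) signal AATAAA was searched in the last 50 bases of 1 annotated protein-coding transcript per gene, so other ends of a gene were not searched. It was found in 60 of 97 upstream parents (61.9%), beside 62.8% of 13732 tested rows that are not readthrough rows. The variant ATTAAA, counted where AATAAA was missing, was found in 8 of them (8.25%), beside 14.3%. Of the upstream parents of risen rows, 13 of 23 had AATAAA (56.5%), 1 had ATTAAA (4.35%) and 9 had neither (39.1%). The share with neither was 29.9% over all upstream parents and 22.9% over the tested rows that are not readthrough rows. These differences were not tested. In RefSeq's promoter windows (250 bases before to 50 after a gene's start, GRCh38.p14), 68 members and their upstream parents could be matched, and 55 of these windows overlapped on 1 strand (80.9%), 31 of them being identical.

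Genes of cleavage, polyadenylation and termination changed in both directions. Of 34 list members, all tested, 12 were higher and 6 lower, with a median log2 fold change of 0.35, against 23.8% and 22.3% of all tested rows. SNRNP70, the U1 snRNP protein, part of a particle that also suppresses premature cleavage, rose from 135 ± 5.35 to 325 ± 7.81 CPM (edgeR adjusted p = 3.53e-05). CPSF7, of the cleavage factor that binds upstream of poly(A) sites, rose by 0.75 in log2 units (adjusted p = 4.28e-05 by edgeR), and SCAF11 by 0.47 (edgeR adjusted p = 0.000139). CPSF4, a zinc-finger subunit of the complex that recognises AATAAA, fell from 89.7 ± 6.28 to 33.2 ± 1.98 CPM (adjusted p = 0.000173 by edgeR). The nuclear poly(A)-binding protein gene PABPN1 fell by 0.54 (edgeR adjusted p = 0.000284) and CPSF2 by 0.52 (edgeR adjusted p = 0.000499). PABPN1 is also a parent: BCL2L2-PABPN1 measured 19.2, 19.7 and 9.87 CPM in DMSO and 13.1, 28.5 and 16.9 CPM in OTSSP167, with overlapping groups (edgeR adjusted p = 0.625).

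Of the 50 tested members that did not pass, SYNJ2BP-COX16 came closest to the threshold (log2 fold change 3.15, edgeR adjusted p = 0.0511) and SPECC1L-ADORA2A lay farthest from it (0.02, edgeR adjusted p = 0.993). HNRNPUL2-BSCL2 lay all above in OTSSP167 (15, 27.4 and 27.1 CPM against 34.7, 40.1 and 39.1 CPM, edgeR adjusted p = 0.0678), and ABHD14A-ACY1 all below (6.11, 3.26 and 2.44 CPM against 0.842, 2.24 and 0.573 CPM, edgeR adjusted p = 0.0832). Of all tested members, 33 lay wholly above and 6 wholly below in OTSSP167, against 30.8% and 29.6% of all tested rows. Of the 25 untested members, 6 were at 0 in all libraries. Among all 101, 9 had counts with OTSSP167 only and 2 with DMSO only, from 1 count for SAA2-SAA4 to 1531 for ZFP91-CNTF. The like share over the whole table was not counted. More of its rows had a count in each OTSSP167 library (15481 to 15900) than in each DMSO library (14919 to 15030), so these numbers alone set no member apart.

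The marker check fitted the labelled cell type only in part. PHOX2A, HAND2, GATA3 and MYCN, named from a longer list, were abundant in all libraries, while TH stayed at or under 0.410 CPM and DBH at or under 12.2 CPM. MYCN averaged 7544 CPM in DMSO and 4495 CPM in OTSSP167. Leukocyte markers (PTPRC, CD3E, CD79A) summed to 0 to 0.127 and 2.58 to 3.66 CPM, nearly all CD79A, with CD3E at 0. Endothelial markers stayed at or under 0.102 CPM, epithelial markers summed to 1.35 to 1.94 and 3.33 to 4.34 CPM with KRT5 at 0, and fibroblast markers to 15.7 to 20.2 and 6.10 to 10.6 CPM with DCN at 0. The epithelial sum was nearly all EPCAM (means of 1.68 CPM in DMSO and 3.72 CPM in OTSSP167). The fibroblast sum was nearly all COL1A1 (18.0 and 7.87 CPM). The part of all these markers in the readthrough values was not tested.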

How the data were processed

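RNA of NGP cells was sequenced as 3 DMSO and 3 OTSSP167 libraries. The authors deposited 1 table of whole-number counts per gene symbol. Per the submitters' processing notes, FastQC 0.11.2, HISAT2 2.1.0, StringTie 1.3.5 and GRCh38.p13 were used; no source used here states the counting step, the annotation or the strand setting. Library totals were 46230392 to 50810126 counts in DMSO and 36401828 to 57460375 in OTSSP167; counting error is small above 10 CPM. No columns belonged to other samples. No library repeated another: the chi-square of replicate pairs was 82.8 to 98.8 per gene, and 1 would be sampling noise.

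The whole table was fitted with edgeR 4.0.16 in R 4.3.3 (filterByExpr, TMM scaling, robust quasi-likelihood F test, no covariate), with Benjamini-Hochberg adjustment over 14402 rows and a threshold of 0.05. CPM are relative to a library's counted reads, and in bulk RNA fewer cells with a transcript and less of it per cell cannot be told apart. Positions came from GENCODE 29 by symbol, which matched 94 of 101 members and 191 of 200 parents; the table itself has no coordinates. Junctions were read from GRCh38.

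The members and lists were chosen with earlier results of these data known. Named rows were MROH7-TTC4 and ISY1-RAB43, the 10 largest rises, up to 8 largest falls (2 passed), the 5 highest mean CPM, 5 rows opposite to a parent by smallest p, and 3 rises and 3 falls of the termination list. Alternatives were DESeq2 1.42.0, limma-voom (limma 3.58.1), other scalings, filters and pseudocounts, a 1.5-fold test, a replicate block and leaving out each library. One marker of the labelled cell type, and the sum that holds it, are not reported here.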

Additional observations from a re-analysis of the deposited data

How the results depend on the processing

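Of the 26 called readthrough rows, 13 passed under every alternative in which they were tested and 13 lost the call under at least 1. The count of risen rows was 17 to 23 when each library was left out in turn, 15 with the replicate block and 8 of 25 tested with at least 1 CPM in all libraries; it was 30 with DESeq2, 27 with limma-voom and 16 against a 1.5-fold change. The count of fallen rows was 5 with DESeq2, 1 against a 1.5-fold change, 1 with upper-quartile scaling, 1 with at least 1 CPM, 1 with the replicate block, and 1 to 4 with libraries left out (4 without OTSSP167 replicate 2 and 1 without any other). Against 1.5-fold, 19 parents were higher and 19 lower, 2 termination genes were higher and 2 lower, and 2826 of all genes passed; leaving out libraries gave 31 to 38 and 28 to 34 parents. Loci with separated ratios numbered 36 to the upstream and 23 to the downstream parent; with at least 1 CPM they were 9 of 21 and 6 of 18, and with libraries left out up to 43 and 34. The fewer rows tested at 1 CPM bear on those counts. With a library left out, fewer values have to lie apart, so more separated ratios follow from the definition. For the other counts the cause was not tested. The log2 difference of the summed CPM ran from 0.84 to 1.10. The log2 fold change of RPS10-NUDT3 was 2.66 and ran from -0.094 (without OTSSP167 replicate 3, edgeR adjusted p = 0.948) to 3.35 with libraries left out; its adjusted p lay between 0.0614 and 0.948 across every setting. Upper-quartile scaling moved the median of all genes by 0.10 and that of the members from 1.08 to 1.18. Deviations of same-numbered libraries correlated at 0.01 to 0.04, so the numbers do not pair them, and the block is an alternative only; it gave 4887 calls over all genes, and CCDC169-SOHLH2 and MIA-RAB4B lost theirs (adjusted p = 0.107 and 0.113). Depth limits the rows under 1 CPM, where a few counts make a value.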
